A study of Homo sapiens with 3 samples.

Results

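Genes with symbols typical of long noncoding RNAs held 244 of the 40843 clusters of enriched C-to-U editing called in cells expressing RBFOX2-APOBEC1. Their symbols start with LINC or SNHG, or end in -AS, -AS plus a number or -IT1, and not all of them are noncoding. They comprise 87 of the 9109 gene symbols with a cluster. Members were found by the symbol alone, and 3 symbols of the same form (LINC00657, SNHG1 and OIP5-AS1) were kept apart and appear only as a comparison near the end. A cluster was assigned to the gene that its name lists before any other. Clusters of the same strand that overlap by at least 1 base, within or between replicates, were joined into a locus, which gave 194 loci for these genes and 33244 for all genes.

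The data come from 3 biological replicates of HEK293T cells (the HEK293XT stock of this human embryonic kidney line, genotype WT), in which doxycycline induced the RBFOX2-APOBEC1 fusion for 72 h. The labels describe both a transient transfection and stable lines, and they name polyA RNA with a stranded mRNA or total RNA kit. All 3 samples belong to this 1 condition. No sample lacking the fusion was analysed here, so no background of C-to-U changes can be set beside the values. The deposited values describe called clusters and not expression, and the cell line was therefore not checked against marker genes. Reads in all clusters numbered 1637592, 1731304 and 1104249 in replicates 1, 2 and 3, of which 9852, 13796 and 7368 lay in the clusters described here.

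RBFOX2 is an RNA-binding protein best known for regulating alternative splicing, and APOBEC1 is a cytidine deaminase that converts C to U in RNA. In the STAMP design the fusion leaves C-to-U changes on transcripts that it meets. SNHG genes are host genes of small nucleolar RNAs (snoRNAs), which are cut out of the introns of the transcript, while the spliced host RNA is exported or turned over. Antisense genes are transcribed from the strand opposite a neighbouring gene, LINC genes lie between other genes, and IT genes are transcripts annotated within the introns of another gene.

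Names of this kind are provisional, and 86 of the 87 symbols were matched to RefSeq (assembly GRCh38.p14, used for names and gene types only), 54 by the current symbol and 32 by an older one. ANKRD10-IT1 had no match. RefSeq calls 74 of the genes lncRNA and 1 antisense RNA, but it lists 9 as protein coding and 2 as transcribed pseudogenes. The protein coding entries include LINC00998, now SMIM30, which encodes a small integral membrane protein, LINC00984, now INAFM2, and MMP24-AS1, now MMP24OS. HNRNPU-AS1 is an older name of HNRNPU itself, the gene of an abundant nuclear RNA-binding protein. A further 3 members are now named as snoRNA hosts, namely C17orf76-AS1 (SNHG29), LINC00888 (SNHG33) and LINC00338 (SNHG20). The term noncoding therefore describes the symbols and not every gene among them.

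These genes had 80, 92 and 72 clusters in replicates 1, 2 and 3 (81.3 ± 10.1, mean ± SD, n = 3), in 46, 53 and 43 genes. They made up 0.560%, 0.606% and 0.633% of all clusters and 0.567%, 0.651% and 0.626% of all edited bases. The mean share of edited bases was 0.615% ± 0.0430 (SD, n = 3). A few of them held much of the edited bases, which are counts not scaled to coverage. SNHG6 alone held 28.7%, 26.7% and 28.0% of the edited bases of the group, and C17orf76-AS1 held 9.58%, 18.6% and 10.1%. Of the C bases covered by reads, 1.81%, 2.10% and 1.97% were edited in SNHG6 and 1.17%, 0.961% and 1.07% in the whole group. In C17orf76-AS1 the values were lower than in the group, at 0.597%, 0.382% and 0.378%. At the other end, 39 of the 87 genes had a single cluster.

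The edit fraction divides the edited bases of a cluster by the C bases its reads covered. Its median in these genes was 2.80%, 2.25% and 2.08% in replicates 1, 2 and 3, against 1.63%, 1.65% and 1.80% in all other clusters. The difference was positive in all 3 replicates, at 1.17, 0.595 and 0.279 percentage points (0.680 ± 0.450, mean ± SD, n = 3; exact two-sided sign-flip permutation p = 0.25). With 3 replicates, 0.25 is the smallest p that this exact permutation test can give, so none of the differences below can pass a threshold of 0.05. The difference was 0.437 percentage points without replicate 1 and 0.881 without replicate 3. It was 0.281 with means in place of medians (positive in 2 of 3 replicates), 0.301 over clusters with at least 2 edited reads, 0.367 in exons and 0.112 with all bases pooled.

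Read depth was compared as well. Mean read depth over a cluster, in reads, had a median of 17.2, 17.7 and 20.5 in these genes and 25.2, 24.7 and 21.1 in all others (difference -5.18 ± 3.98, n = 3, exact permutation p = 0.25). The direction turned with means in place of medians, to 11.5 ± 13.0 reads. It also turned over clusters with a depth of 50 or more, to 29.3 ± 32.8 reads (positive in 2 of 3 replicates), where the filter acts on depth itself. Clusters under a depth of 10 made up 30%, 30.4% and 23.6% of the group and 17.3%, 17.9% and 21.9% of the others. The highest value of the group, 14.3% in LBX1-AS1 in replicate 2, came from 1 edited read of 6. Over clusters with a depth of at least 10, the difference in median edit fraction shrank to 0.167 percentage points and was positive in 2 of 3 replicates.

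Within classes of depth the sign of the difference varied. Under a depth of 10 the group lay below the other clusters, by 1.07, 1.88 and 1.13 percentage points (mean difference -1.36 ± 0.455, n = 3), over 24, 28 and 17 clusters. At a depth of 10 to 20 the mean difference was 0.466 ± 0.441 percentage points, and at 20 to 50 it was 0.522 ± 0.753. Where depth reached 50 or more, the medians were 0.829%, 0.945% and 0.932% in the group and 0.774%, 0.792% and 0.782% in the others, a mean difference of 0.119 ± 0.0557 percentage points. Only under 10 and at 50 or more did all 3 replicates lie on the same side, and in opposite directions.

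**Figure D1:**
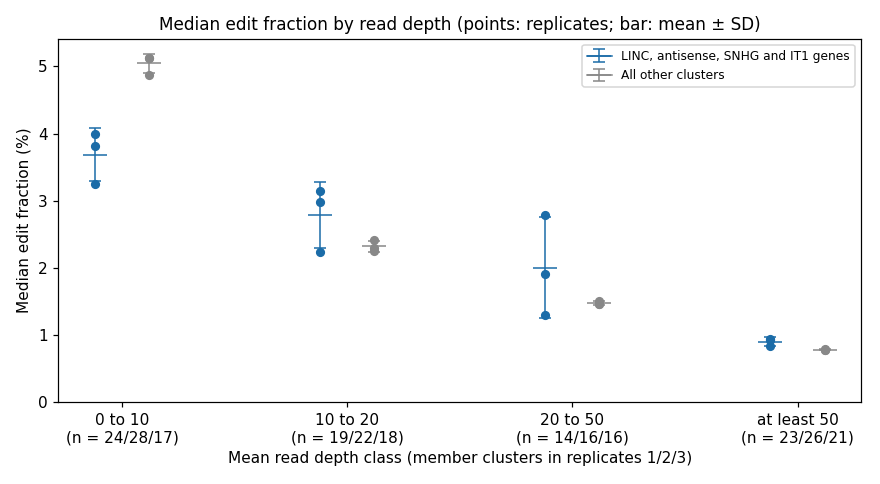
Median edit fraction (%) of clusters in LINC, antisense, SNHG and IT1 genes (blue) and of all other clusters (grey) in 4 classes of mean read depth (reads). Points are replicates and bars are mean ± SD (n = 3), and the blue points lie below the grey ones under a depth of 10 and slightly above them at 50 or more.

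Other features of the clusters were compared in the same way. The median length was 45 bases in both sets, and the median number of C bases per 100 bases was the same in both sets in each replicate, at 17.8, 18.7 and 20. The share of clusters that rest on 1 edited read was 30%, 26.1% and 27.8% in the group and 28.0%, 31.1% and 33.1% in the others (difference -2.75 ± 4.14 percentage points, exact permutation p = 0.5). Without replicate 1 this difference was -5.14, without replicate 2 it was -1.63 and without replicate 3 it was -1.48. A deposited score of at least 0.99 was reached by 59 of 80, 60 of 92 and 51 of 72 clusters (73.8%, 65.2% and 70.8%), against a background over all clusters of 60.8%, 60.1% and 61.2%. The share was higher than in other clusters in every replicate, by 9.31 ± 3.97 percentage points (n = 3, exact permutation p = 0.25).

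Intronic clusters were more frequent in these genes. They made up 12.5%, 13.0% and 11.1% of the group and 2.12%, 2.27% and 1.66% of all other clusters, a difference of 10.2 ± 0.680 percentage points (n = 3, exact permutation p = 0.25). The 30 intronic clusters lay in 16 genes, of which C17orf76-AS1 held 9, HNRNPU-AS1 held 4 and MLIP-IT1 held 3. Leaving out C17orf76-AS1 and HNRNPU-AS1 lowered the difference to 6.0 percentage points, and among clusters with depth of 50 or more it was 0.569.

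The 4 kinds of gene differed in depth and in edit fraction, as the plot of edit fraction against depth shows. The 9 SNHG genes had a median cluster depth of 120, 82.6 and 73.6 reads in replicates 1, 2 and 3, and a median edit fraction of 1.26%, 1.30% and 1.53% (1.36% ± 0.150, n = 3). The 51 antisense genes had a median depth of 11.6, 16.4 and 13.6 reads and a median edit fraction of 2.93%, 2.41% and 2.39% (2.58% ± 0.303). The 24 LINC genes resembled the antisense genes, with a median depth of 19.5, 12.3 and 11.9 reads and a median edit fraction of 2.59%, 2.82% and 2.16% (2.52% ± 0.332). In every replicate the SNHG clusters were deeper than the antisense clusters, by 78.0 ± 26 reads. They were lower in edit fraction, by 1.67, 1.11 and 0.860 percentage points. The authors set separate backgrounds for windows with few reads, where a stronger signal was needed for a call. Low depth alone can therefore go with a high edit fraction among called clusters. The kinds were not compared at equal depth, so a difference in edit fraction apart from depth was not tested.

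**Figure D2:**
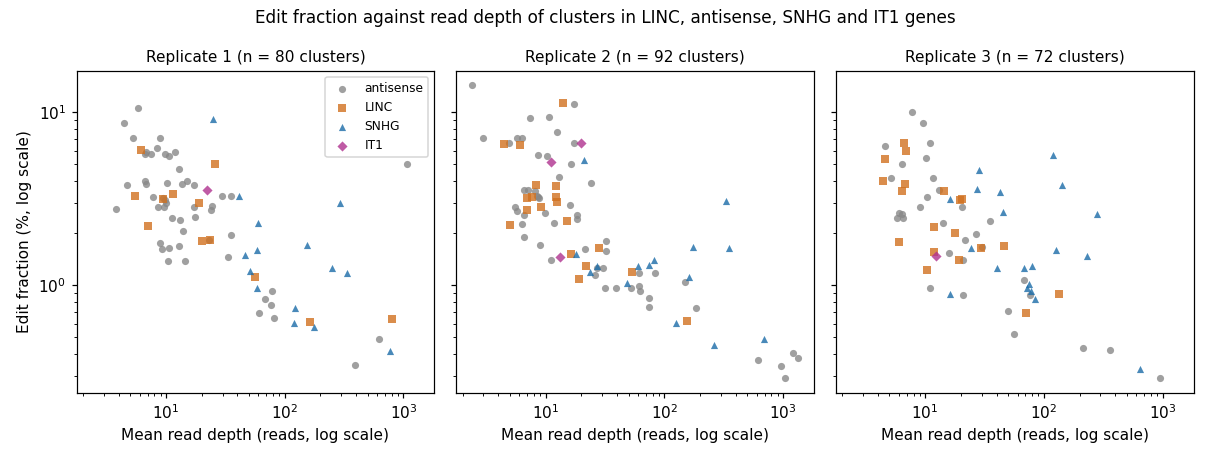
Edit fraction (%, log scale) against mean read depth (reads, log scale) of each cluster in the group, 1 panel per replicate, with 80, 92 and 72 clusters. The edit fraction falls as depth rises in each panel, and most SNHG clusters (triangles) lie at higher depth than the antisense, LINC and IT1 clusters.

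The kinds also differed in how often the same gene was found again. Of the 9 SNHG genes 7 had a cluster in all 3 replicates and none in a single one, while 34 of 51 antisense genes, 15 of 24 LINC genes and 2 of 3 IT1 genes were found in 1 replicate. Kinds were set by the symbol, so the snoRNA hosts C17orf76-AS1 and LINC00888, both found in all 3 replicates, counted as antisense and LINC. The 9 SNHG genes had 50 clusters, the 51 antisense genes 139 and the 24 LINC genes 50. Recurrence was not compared at equal numbers of clusters or equal depth. Over all 87 genes, 19 (21.8%, Wilson 95% interval 14.5 to 31.6) had a cluster in all 3 replicates, against 38.3% of all gene symbols. In at least 2 replicates the figures were 36 genes (41.4%) and 66.5%. The genes of the group had 2.80 clusters each on average and all genes had 4.48, and the part of this in the recurrence was not tested. Wilson intervals here cover counting error only.

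Recurrence of loci, in contrast to genes, was near the background. The group had 12 of 194 loci in all 3 replicates (6.19%, Wilson 95% interval 3.57 to 10.5), and 4.77% of all loci were found that often. In 9 of the 12 (4.64% of the 194) a base was shared by all 3 replicates, a check chosen after seeing the data. With an overlap of at least 50% required, 10 of 197 loci (5.08%) recurred. Neither stricter share was computed for all loci. In at least 2 replicates there were 32 loci (16.5%), against 16.6% of all loci. The recurrence of a locus rose with the largest number of edited reads it had in any replicate. A locus found in more replicates has more values from which this maximum is taken, so the classes are not independent of recurrence. Loci with at most 1 edited read in any replicate were never found in all 3, at 0 of 57, and 1 of 113 loci with a maximum of 2 to 4 was, against 0.0663% and 1.88% of all loci. With a maximum of 5 to 10 edited reads 5 of 14 loci recurred, and with 11 or more 6 of 10 did, against 21.0% and 70.1% of all loci in these classes. The last class includes LINC00486, whose count of edited reads exceeds its edited bases, as described below.

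**Figure D3:**
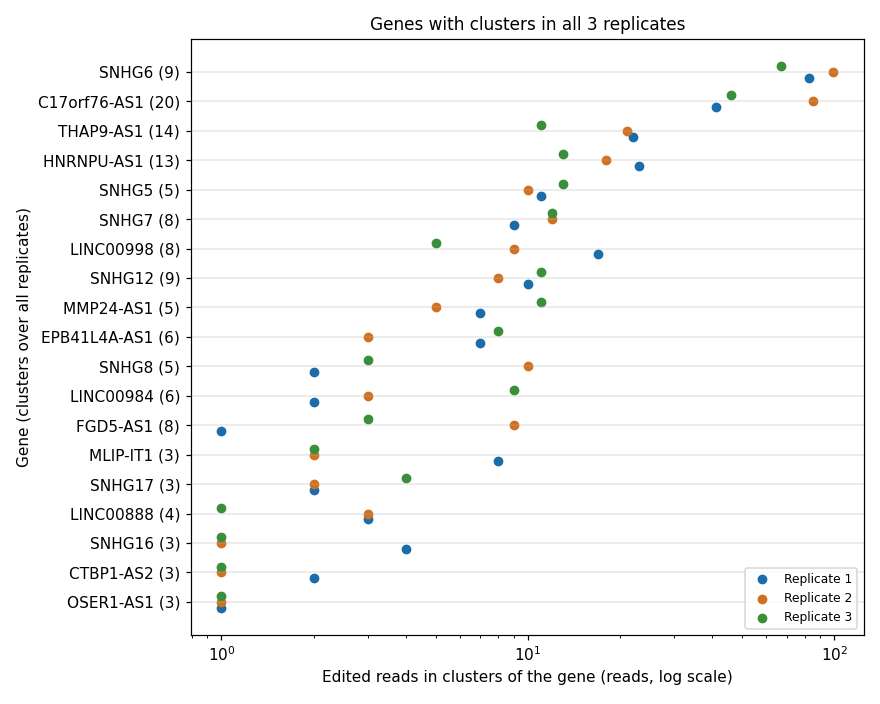
Edited reads (log scale) in the clusters of each of the 19 genes with a cluster in all 3 replicates, with the number of clusters over all replicates in brackets and 1 point per replicate. SNHG6 and C17orf76-AS1 lie at the top with 83, 99 and 67 and with 41, 85 and 46 edited reads, and OSER1-AS1 has 1 in each replicate.

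SNHG6, the host gene of SNORD87, was the member with the most edited bases and the most regular pattern. Its 9 clusters fell into 3 loci within 722 bases on the minus strand of chromosome 8 (hg19), and each locus was called once in every replicate. Exons are numbered in the deposited names by rising coordinate on both strands, so the lowest exon number lies at the 3′ side of a minus-strand gene. The pooled edit fraction of the gene was 1.81%, 2.10% and 1.97% in replicates 1, 2 and 3 (1.96% ± 0.144, n = 3).

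The locus of SNHG6 farthest to the 5′ side, chr8:67834836-67834941 in exon 2, had an edit fraction of 2.98%, 3.06% and 2.59% (2.87% ± 0.25). It rested on 47 of 478, 51 of 558 and 35 of 471 reads with an edit, which is 9.83% (Wilson 95% interval 7.48 to 12.8), 9.14% (7.02 to 11.8) and 7.43% (5.39 to 10.2). These intervals overlap in all 3 replicates. Each edited read carried 1.98, 2.20 and 2.17 edited bases on average, at a mean depth of 294, 334 and 283 reads over 14 C bases.

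The middle locus, chr8:67834536-67834641, also in exon 2, had an edit fraction of 1.17%, 1.64% and 1.48% (1.43% ± 0.236), with 18 of 524, 34 of 523 and 26 of 386 reads edited. The locus at the 3′ side, chr8:67834219-67834324 in exon 0, had 1.26%, 1.12% and 1.59% (1.32% ± 0.240), with 18 of 470, 14 of 396 and 6 of 268 reads edited. In every replicate the 5′ locus was the highest of the 3, and the other two changed order between replicates. Both exon 2 loci list SNORD87 as a second name, so by these names their editing cannot be assigned to the host RNA alone. Where SNORD87 lies relative to each locus was not checked. Among the 803 loci of all genes that were found in all 3 replicates and had a depth of 50 or more throughout, the median of the mean edit fractions was 0.770%, and the SNHG6 loci ranked 14, 75 and 90 from the top. By the share of edited reads the same loci ranked 36, 134 and 430, and the 3′ locus (3.20%) lay below the median share of 3.38%. The other members among these deep loci were SNHG7, C17orf76-AS1 and SNHG5, which ranked 439, 732 and 744 by edit fraction. They ranked 204, 749 and 777 by the share of edited reads.

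**Figure D4:**
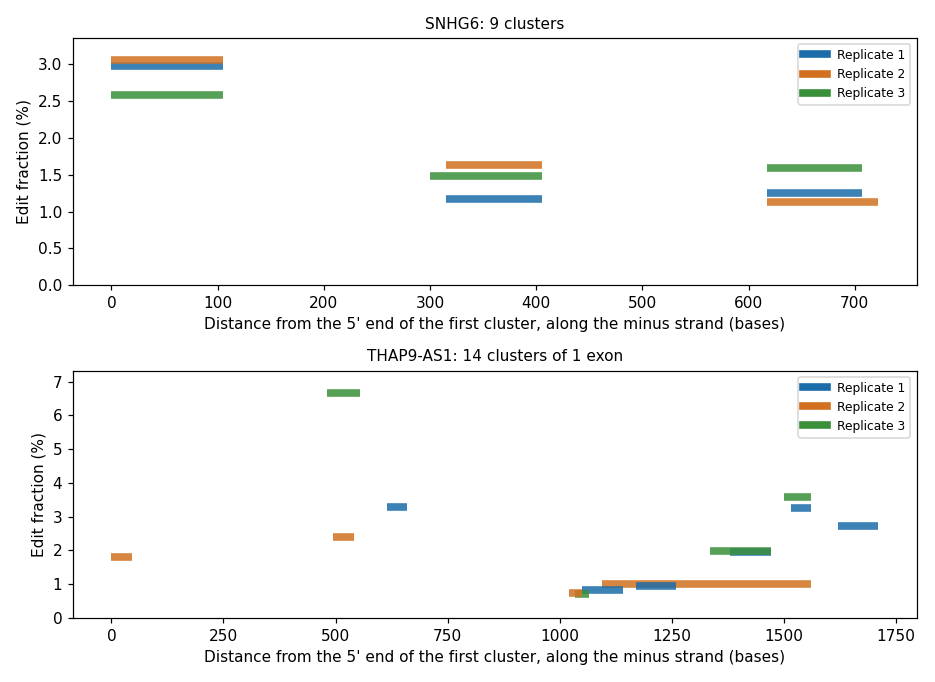
Edit fraction (%) of each cluster of SNHG6 (9 clusters) and of exon 31 of THAP9-AS1 (14 clusters) along the minus strand, with distance in bases from the 5′ end of the first cluster and 1 colour per replicate. The SNHG6 clusters of the 3 replicates stack at 3 places, with the 5′ one highest at 2.59% to 3.06%, whereas the THAP9-AS1 clusters differ in length between replicates.

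SNHG5, a snoRNA host gene on chromosome 6, held the deepest SNHG locus and the lowest mean edit fraction among the loci found in all 3 replicates, within the spread of C17orf76-AS1. At chr6:86386860-86386905 (minus strand, exon 6) the edit fraction was 0.416%, 0.492% and 0.329% (0.412% ± 0.0812), with 9 of 894, 10 of 829 and 12 of 818 reads edited at a depth of 767, 697 and 642 reads. SNHG7 had 8 clusters in 5 loci. Its locus at chr9:139619200-139619290 (minus strand, exon 3) had 0.743%, 0.608% and 0.830% (0.727% ± 0.112), with 6 of 154, 10 of 232 and 6 of 104 reads edited. Both genes thus gave 1 locus with values close together in all replicates, at a lower edit fraction than any locus of SNHG6. By the mean share of edited reads, SNHG7 (4.66%) lay above the 3′ locus of SNHG6 (3.20%) and below its other loci, and SNHG5 (1.23%) lay below all of them.

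SNHG12 varied more. Its locus at chr1:28905065-28905155 (minus strand, exon 0) had an edit fraction of 3.30%, 1.19% and 3.61% (2.70% ± 1.32), and the low value of replicate 2 rested on 1 edited read of 29, against 8 of 92 and 5 of 32. The other 5 loci of the gene were in exon 3, and 1 of them, at chr1:28906045-28906105, was found again, with 1.40% in replicate 2 and 0.965% in replicate 3. SNHG17 had 1 locus, chr20:37049235-37049340 (minus strand, exon 0), with 1.60%, 1.52% and 1.25% (1.46% ± 0.181) from 2, 2 and 4 edited reads. Its clusters in replicates 1 and 2 were joined only through that of replicate 3, so no base was shared by all 3.

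The remaining SNHG genes had no locus in all 3 replicates. SNHG8 had 5 clusters at 5 places, with 2, 10 and 3 edited reads in replicates 1, 2 and 3. SNHG16 had 3 clusters, and its locus at chr17:74561361-74561406 (exon 5) had 0.603% in replicate 1 and 1.29% in replicate 3. SNHG15 had 4 clusters with 6, 0 and 5 edited reads, and SNHG11 had 4 with 0, 2 and 6, each at a place of its own. These 4 genes were therefore seen again as genes but, apart from the 1 locus of SNHG16, not at the same position.

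C17orf76-AS1, now SNHG29, was the antisense-named gene with the most loci (20 clusters in 14 loci on the plus strand of chromosome 17) and fell into regions of different depth. In exon 4 its 7 clusters had edit fractions of 0.291% to 1.18%. The locus at chr17:16344823-16344928 was found in all replicates with 0.491%, 0.371% and 0.422% (0.428% ± 0.0604), from 34 of 1695, 24 of 1694 and 14 of 1098 edited reads. In intron 18, 30358 bases downstream, 9 clusters had a depth of 7.41 to 30.6 reads and edit fractions of 1.26% to 9.38%.

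The intronic clusters of C17orf76-AS1 included 3 loci found in 2 replicates. The locus at chr17:16375976-16376021 had 1.65% in replicate 1 and 2.30% in replicate 3, and the one at chr17:16376051-16376096 had 5.77% and 1.54% in the same replicates. The one at chr17:16376291-16376351 had 6.25% in replicate 1 and 9.23% in replicate 2. Each of these values came from 1 or 2 edited reads, so the differences between them cannot be read. Pooled over the gene, the edit fraction was 0.597%, 0.382% and 0.378% (0.452% ± 0.125), which is the level of the deep exons.

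THAP9-AS1, which lies next to the THAP9 transposase gene, had 14 clusters, all in exon 31. At chr4:83814942-83815482 (minus strand) its joined clusters had an edit fraction of 1.21%, 0.976% and 1.66% (1.28% ± 0.350), with 18 of 371, 17 of 430 and 9 of 155 reads edited. Replicate 2 covered most of this locus with a single cluster, chr4:83814942-83815407 at 0.992%. Replicate 1 had 4 separate clusters there and replicate 3 had 3, and in both the cluster at the lowest coordinate, the 3′ end of the locus on this strand, was the highest, at 3.26% and 3.57%. These values came from 4 of 49 and 3 of 27 reads with an edit. In both replicates that cluster was also the shallowest of the locus, at a depth of 29.7 and 13.0 reads. A second locus at chr4:83815947-83816022 had 2.41% in replicate 2 and 6.67% in replicate 3.

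HNRNPU-AS1 had 13 clusters in 12 loci, and 12 of the 13 list HNRNPU as a second name on the same strand. The clusters numbered 4, 8 and 1 in replicates 1, 2 and 3. Only the locus at chr1:245017648-245017753 (exon 6) was found more than once, with 0.348% in replicate 1 and 0.432% in replicate 3, from 17 and 13 edited reads. Reads of HNRNPU and of the antisense name cannot be told apart here.

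FGD5-AS1 had 8 clusters in exon 14, spread over 2925 bases of chromosome 3, and none overlapped another. EPB41L4A-AS1 had 6 clusters in 5 loci with a pooled edit fraction of 1.06%, 0.928% and 0.940% (0.976% ± 0.0728), and its locus at chr5:111496853-111496883 was found in replicates 1 and 3 with 0.648% and 1.08%. FGD5-AS1 and EPB41L4A-AS1 were thus each found in all 3 replicates, although neither had a locus in all of them.

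The partner of an antisense gene was read from the symbol, and stems such as HOXB, which names a group of genes, were counted as without one. Of the 51 antisense genes, 34 had a partner, the gene named before -AS, with a cluster in any replicate, and 28 had one in the same replicate. No share over all genes was computed for this, so the counts do not say whether partners were edited together more often than other genes. The partner's clusters lay on the opposite strand for 33 of the 34, and the remaining one was HNRNPU. No cluster of the group overlapped a cluster of the other strand (0 of 244, which allows a share of up to 1.23%), and over all genes 33 of 40843 clusters did (0.0808%). At this number of clusters a share at the background level was not detectable.

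Among the LINC genes, LINC00998 (SMIM30) held both loci found in all 3 replicates. At chr7:112756983-112757133 (minus strand, exon 0) the edit fraction was 1.11%, 1.20% and 2.00% (1.44% ± 0.490), with 10 of 110, 2 of 59 and 2 of 28 reads edited. At chr7:112757283-112757478 in the same exon it was 0.617%, 0.618% and 1.69% (0.974% ± 0.617), with 5 of 229, 7 of 332 and 2 of 94 reads edited. Replicate 3 was the highest at both loci with 2 edited reads at each, and the clusters of the 3 replicates share no base at either locus.

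LINC00984 (INAFM2) had 6 clusters in 4 loci on the plus strand of chromosome 15. Its exonic locus chr15:40618746-40618821 had 1.80% in replicate 1 and 1.64% in replicate 3 (1.72% ± 0.117), from 2 edited reads each, and belonged to the 5 highest loci of the group among those with a depth of at least 20 in at least 2 replicates. Its locus in intron 1, chr15:40618424-40618529, had 1.64% in replicate 2 and 3.49% in replicate 3. LINC00888 (SNHG33) also had clusters in all replicates, with 3, 3 and 1 edited reads. The other LINC genes were found in 1 or 2 replicates.

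LINC00486 stood apart from every other member. Its only cluster, chr2:33091935-33091980 on the plus strand (intron 3), was found in replicate 1, where 677 of 952 reads (71.1%) were counted as edited. Yet the same cluster had 15 edited bases over 2339 covered C bases, an edit fraction of 0.641%, at a depth of 806 reads. An edited read must hold an edited base, and this was the only cluster of the 244 with more edited reads than edited bases, a state shared by 51 of all 40843 clusters. The LINC genes had 706, 47 and 36 edited reads in replicates 1, 2 and 3, and 29 in replicate 1 without LINC00486.

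The 3 IT1 genes had 5 clusters, of which 4 were intronic. MLIP-IT1, within the gene of a lamin-interacting muscle protein, was found in all replicates at chr6:54075398-54075443 (plus strand, intron 39), a position that also lists MLIP and RP11-411K7.1. Its edit fraction was 3.57%, 1.45% and 1.47% (2.16% ± 1.22), with 8 of 24, 2 of 16 and 2 of 16 reads edited. ANKRD10-IT1 and SYNJ2-IT1 each had 1 cluster, in replicate 2, with 6.67% in exon 5 and 5.17% in intron 10. The latter also lists SYNJ2, so editing at MLIP-IT1 and SYNJ2-IT1 cannot be assigned to the IT1 transcript.

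**Figure D5:**
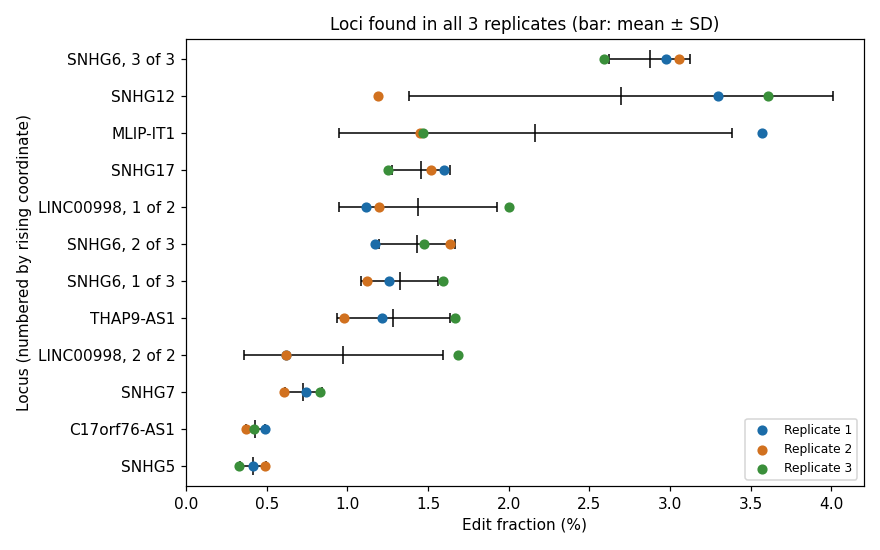
Edit fraction (%) of the 12 loci found in all 3 replicates, with points for replicates and bars for mean ± SD (n = 3). Loci of 1 gene are numbered by rising coordinate, the means run from 0.412% (SNHG5) to 2.87% (SNHG6, 3 of 3), and the spread is widest for SNHG12 and MLIP-IT1.

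The 12 loci found in all 3 replicates lay in 9 genes, and 7 of them were in SNHG genes. Their mean edit fractions had a median of 1.38%. The ranges of replicates overlapped between many neighbours in this order, for instance between LINC00998, THAP9-AS1 and the lower loci of SNHG6. They did not overlap between the 5′ locus of SNHG6 (2.59% to 3.06%) and SNHG7 (0.608% to 0.830%), nor between SNHG7 and C17orf76-AS1 (0.371% to 0.491%).

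In a few clusters the edit fraction rested on far fewer bases than the depth implies. Covered C bases per C base of the cluster were under 0.25 of the mean read depth in 8 clusters of the group (3.28%), against 2.46% of all clusters. In C17orf76-AS1 a cluster of replicate 1 at chr17:16342766-16342796 had a depth of 1072 reads but 5.00 covered bases per C base, and its edit fraction of 5.00% came from 1 edited base. SNHG8 in replicate 3 (intron 1, depth 143, 11.3 covered bases per C base) and 2 clusters of SNHG15 (depths 155 and 120, with 19.4 and 10.5) were of the same kind.

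Of 8 other long noncoding genes outside the rule, the deepest had low edit fractions, but the order did not follow depth throughout. ZFAS1, another snoRNA host, had a median edit fraction of 0.472%, 0.523% and 0.611% at a depth of 373, 381 and 283 reads, and all 3 of its loci were found in all replicates. GAS5, also a snoRNA host, had 0.357%, 0.534% and 0.473% at 771, 709 and 632 reads. These levels lay with SNHG5 and below SNHG6. DANCR, a further snoRNA host, had 0.570%, 0.459% and 0.644% at 153, 120 and 120 reads. SNHG1 had a median of 1.15%, 3.37% and 0.819% at 32.3, 113 and 89.3 reads, from only 1, 2 and 1 clusters. Its highest median came at its highest depth, but with all bases pooled it had 1.15%, 0.643% and 0.819%, lowest at that depth. LINC00657 (NORAD) had 8 clusters in each replicate with a median of 1.21%, 1.56% and 1.84%, and 1 of its 16 loci was found in all replicates. MALAT1, a nuclear RNA, had 3.20%, 4.25% and 4.26% at a depth of 12.7, 9.61 and 8.13 reads. NEAT1, another nuclear RNA, had 1.93%, 1.56% and 6.45% at 38.7, 14.1 and 6.45 reads, and OIP5-AS1 had 2.42%, 1.77% and 4.62% at 16.9, 15.2 and 8.37 reads. In both genes the lowest median was not at the highest depth.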

How the data were processed

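RNA editing was measured by STAMP in 3 replicates, which the authors processed separately. They called C-to-U positions with SAILOR (common SNPs removed) and ran FLARE with windows of 30 bases, which were kept at an adjusted p-value of 0.1 and merged within 15 bases. The submitters' processing notes name STAR and hg19, with no version. Per cluster, the authors gave unscaled counts, namely of reads, edited reads, covered C bases and edited bases. The edit fraction and the fraction of edited reads were computed by the authors, and edited bases over covered C bases, from the deposited counts, matched the deposited edit fraction within 1e-09 in 40843 of 40843 clusters. Read depth was deposited as the mean coverage of the cluster, also unscaled. The authors' score places the edit fraction within a cumulative negative binomial distribution. The deposited values hold neither the windows that failed the filter nor library totals, so an absent cluster is not an absence of editing.

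Medians and shares per replicate, their mean and SD over 3 replicates, and exact sign-flip tests of the 3 within-replicate differences were computed in Python (version 3.11.15) using pandas (version 2.3.3), NumPy (version 2.4.6) and SciPy (version 1.17.1), and plots were drawn by matplotlib (version 3.10.9). The labels do not say from which cultures the replicates came, so p-values measure the spread between these samples. Reads carry no molecular identifiers. Clusters are not replicates, and no test treats them so. The members, the lists and the comparisons were chosen with earlier results of these data known. The rule for named genes took loci found in all 3 replicates, the 5 loci with the highest mean edit fraction in at least 2 replicates at a depth of at least 20, SNHG and IT1 genes, the 5 genes with the most loci and the 5 with the most edited reads, and intronic loci found in at least 2 replicates. LINC00888, MMP24-AS1, LINC00338, OSER1-AS1, LBX1-AS1 and the clusters with few covered C bases were named after their values were seen. The search for overlaps gave the known answer for 100% of 600 simulated clusters. Alternatives were a minimum score of 0.95, a minimum depth of 10 or 50, a minimum of 2 edited reads, exonic clusters alone, means, and leaving out each replicate. Positions are printed as deposited, and cluster sequences were not used here.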

Additional observations from a re-analysis of the deposited data

How the results depend on the processing

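No paired analysis was possible because all 3 samples belong to 1 group, and no second group shares their replicate numbers. The edit fraction difference kept its sign as a mean in every alternative run, between 0.112 (bases pooled) and 0.881 percentage points, and was 0.301 with at least 2 edited reads, 0.436 with the 3 dropped genes kept, 0.367 in exons and 0.281 with means. The read depth difference reversed, to 29.3 ± 32.8 reads at a depth of at least 50 (positive in 2 of 3 replicates) and to 11.5 ± 13.0 with means. The first of these filters on the compared value itself, so it is not a check of the main difference. The difference in C bases per 100 bases, 0 in medians, was 0.204 at a score of at least 0.95, -0.855 at a depth of at least 10, -3.27 at 50, -0.517 with at least 2 edited reads, -0.370 with the dropped genes, -0.0988 in exons and 0.800 with means. The mean length differed by 2.87 bases. At a depth of at least 50 there were 23.3 clusters per replicate, 15.6% of loci (7 of 45) and 52.9% of genes (9 of 17) were found in all 3 replicates. Without 1 replicate, 10.5% to 16.9% of loci and 33.8% to 36.9% of genes were found in both others. These shares are of the group alone. The matching shares over all loci and all genes were not computed, so they cannot be set against the background given above. The share of edited bases was 0.685% with the dropped genes, 0.663% when any listed symbol counted and 0.425% without clusters that list a second gene (the latter 2 chosen after seeing the data). The median over recurrent loci was 1.38% as edit fraction and 4.87% as edited reads over reads, which are different measures. Leaving out a replicate also changed the criterion, from 3 replicates to 2. Apart from such changes of measure or criterion, the cause of the changes was not tested. Of the 244 clusters, 68 rest on 1 edited read.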
